A study of Mus musculus with 20 samples.

Results

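The 45 genes described here were taken from a chosen list of genes of hepatic stellate cells, extracellular matrix and TGF-beta signalling. They are fibrillar collagens, basement membrane and other collagens, markers of stellate cells and myofibroblasts, TGF-beta ligands, receptors and SMADs, latent TGF-beta binding proteins (LTBPs), matrix proteases and their inhibitors, lysyl oxidases, and matrix proteoglycans and glycoproteins. For each gene, CpGs were taken from 5 kb before the transcription start site (TSS) to the gene end, and a CpG was kept when at least 10 reads covered it in at least 3 libraries of each group. At least 1 CpG was kept in 44 of the 45 genes. Lumican (Lum), a small proteoglycan that binds collagen fibrils, had none. The genes held 2850 of the 922846 CpGs kept in the genome, and 713 of the 234985 windows of 200 bp (called bins here) that could be tested. The annotation held 21911 protein-coding genes.

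Methylation was measured by reduced representation bisulfite sequencing (RRBS), which cuts DNA at CCGG sites with the enzyme MspI and so reads CpG-rich parts of the genome, in ground whole liver of male wild-type C57BL/6J mice. The mothers were either exposed to an adverse maternal environment (AME) or kept as controls (Con), and the offspring were sampled at weaning (d21) or at birth (d0). The 4 groups were AME-d21, Con-d21, AME-d0 and Con-d0, with 5 libraries each and 20 in all. AME dams ate a Western diet from before pregnancy and were stressed late in pregnancy, whereas Con dams ate a control diet without stress. The diets went on through lactation for the d21 offspring. The d0 offspring were taken by C-section. The d21 offspring came from other dams that delivered naturally, were nursed in culled litters and were fasted before sampling. Age cannot be told apart from these differences. Diet and stress came together in AME, so their effects cannot be told apart. No source used here states that each animal of a group came from its own litter, and p-values measure the spread between these animals. In DNA of whole liver, fewer cells of a type and a change within those cells cannot be told apart.

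Stellate cells lie between hepatocytes and the sinusoids, store retinoids, and turn into collagen-producing myofibroblasts when the liver is injured. TGF-beta, their best known activating signal, is secreted in a latent form that LTBPs tie to the matrix. Once released, it binds TGFBR2, which recruits TGFBR1, and the pair phosphorylates SMAD2 and SMAD3, while SMAD7 holds the pathway back. CpG-rich promoters are mostly unmethylated in all tissues, whereas CpGs within gene bodies are mostly methylated. Methylation alone does not give a gene's expression, and no RNA was measured in these libraries.

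Sequence was printed for 8 windows on which the results below turn, from the plus strand of GRCm38 (mm10), with the CpGs that were measured in capitals. The first is the stretch of the Col1a2 promoter that carried all of its measured CpGs (chr6:4504351-4504541, from -463 to -273 bp relative to the TSS). The second lies before the Reln promoter (chr5:22346001-22346200) and holds most of the CpGs measured in the Reln upstream region, which gained methylation with age. The next 3 are introns in which methylation was much higher at d21, in Col18a1 (chr10:77134801-77135000), Smad3 (chr9:63726201-63726400) and Fbln1 (chr15:85230201-85230400). The last 3 are windows inside genes in which methylation was much lower at d21, a coding exon of Col18a1 (chr10:77113401-77113600) and introns of Smad3 (chr9:63701401-63701600) and Mmp14 (chr14:54434201-54434400). All windows but that of Col1a2 were chosen among bins called in both age comparisons with no overlap between the ages. Their separation by age in both AME and Con offspring was thus set by the choice. Each of the 8 windows held at least 1 CCGG site, and the measured CpGs numbered 2 to 7.
Col1a2 promoter: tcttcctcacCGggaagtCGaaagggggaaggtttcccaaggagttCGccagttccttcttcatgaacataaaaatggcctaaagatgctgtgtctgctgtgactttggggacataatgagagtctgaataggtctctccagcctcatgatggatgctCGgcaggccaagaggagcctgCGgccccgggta
Reln upstream: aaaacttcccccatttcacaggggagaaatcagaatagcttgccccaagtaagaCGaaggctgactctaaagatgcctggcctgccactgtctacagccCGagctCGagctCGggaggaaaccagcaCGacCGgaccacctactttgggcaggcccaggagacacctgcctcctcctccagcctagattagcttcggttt
Col18a1 gained: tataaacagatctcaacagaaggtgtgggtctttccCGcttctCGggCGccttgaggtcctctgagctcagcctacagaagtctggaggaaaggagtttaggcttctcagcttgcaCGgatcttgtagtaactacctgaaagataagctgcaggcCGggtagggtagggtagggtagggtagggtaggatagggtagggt
Smad3 gained: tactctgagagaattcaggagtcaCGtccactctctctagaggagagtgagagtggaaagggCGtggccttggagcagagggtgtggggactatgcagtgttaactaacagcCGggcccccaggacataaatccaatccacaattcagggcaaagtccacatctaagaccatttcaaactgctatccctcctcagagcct
Fbln1 gained: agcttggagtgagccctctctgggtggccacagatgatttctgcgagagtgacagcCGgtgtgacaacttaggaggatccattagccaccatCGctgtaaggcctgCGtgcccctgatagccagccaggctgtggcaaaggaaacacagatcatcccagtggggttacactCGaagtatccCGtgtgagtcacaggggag
Col18a1 lost: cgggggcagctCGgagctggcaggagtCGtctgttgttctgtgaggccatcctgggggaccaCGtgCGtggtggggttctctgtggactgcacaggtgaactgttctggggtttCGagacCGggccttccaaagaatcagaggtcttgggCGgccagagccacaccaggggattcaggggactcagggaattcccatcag
Smad3 lost: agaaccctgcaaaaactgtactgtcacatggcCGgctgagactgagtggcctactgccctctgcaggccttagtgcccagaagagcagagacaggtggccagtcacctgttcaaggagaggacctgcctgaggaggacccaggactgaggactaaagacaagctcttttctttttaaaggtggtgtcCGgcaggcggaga
Mmp14 lost: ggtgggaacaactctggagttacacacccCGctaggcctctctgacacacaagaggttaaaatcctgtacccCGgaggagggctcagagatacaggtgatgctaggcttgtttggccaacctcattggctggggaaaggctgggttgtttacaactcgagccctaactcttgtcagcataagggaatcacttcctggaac

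Read counts summed over the listed CpGs were 23248139 to 45769589 per library, over 1906827 to 2265571 CpGs, with a median of 7 to 13 reads per CpG. A read over several CpGs was counted at each of them. This also holds for the reads of chromosomes and regions given below. Mean methylation over the kept CpGs of the genome was 40.2 to 42.0% in AME-d21, 41.1 to 41.7% in Con-d21 and 36.5 to 38.5% in Con-d0. In AME-d0 it was 33.8 and 33.9% in replicates 1 and 3 and 36.6 to 37.3% in the other libraries, so these 2 libraries lay below all others. AME-d21 replicate 4 went against its label of male, with 2.88 X-chromosome reads per 100 autosomal reads where the other d21 libraries had 1.53 to 1.55. Its reads on the short arm of Y, scaled to library size, were 16.2 RPM, where the other d21 libraries had 189 to 216 RPM. Results that rest on these 3 libraries are given with and without them.

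Each gene was divided into a promoter (1 kb either side of the TSS), an upstream region (5 to 1 kb before the TSS) and a body (from 1 kb after the TSS to the gene end), and a region was tested when it held at least 3 kept CpGs. This gave 34 promoters, 13 upstream regions and 39 bodies. Col4a1 and Col4a2, which are transcribed in opposite directions from a shared start, had the same 50 promoter CpGs, so the promoters were 33 distinct windows. No promoter could be tested for Col3a1, Col5a2, Col6a1, Col6a2, Col6a3, Acta2, Tgfb3, Loxl2, Dcn, Lum or Sparc, and no body for Col1a2, Lrat, Vim, Timp3, Loxl2 or Lum. The lowest number of reads behind a value was 26 in promoters, 36 in upstream regions and 10 in bodies.

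Most of the promoters were nearly unmethylated in all groups. Of the 33 distinct promoters, 28 in AME-d21, 28 in Con-d21, 30 in AME-d0 and 29 in Con-d0 were below 10%, and 21 in AME-d21, 20 in Con-d21, 22 in AME-d0 and 22 in Con-d0 were below 2%. The promoters of Tgfbr1, Smad3, Smad7 and Vim, for example, were at most 0.275% in all groups. The mean over the 33 promoters was 6.31 ± 0.473% in AME-d21, 6.29 ± 0.492% in Con-d21, 3.15 ± 0.294% in AME-d0 and 3.35 ± 0.318% in Con-d0, with the SD over 5 libraries. Gene bodies were mostly methylated, with a mean over the 39 bodies of 64.1 ± 0.274% in AME-d21, 64.1 ± 0.393% in Con-d21, 56.0 ± 2.59% in AME-d0 and 57.7 ± 1.15% in Con-d0. The 13 upstream regions lay between them, at 49.4 ± 0.555% in AME-d21, 47.7 ± 0.680% in Con-d21, 35.1 ± 2.11% in AME-d0 and 38.1 ± 0.689% in Con-d0. The d21 groups were thus above the d0 groups in each kind of region. In the upstream regions all AME-d21 libraries (48.7 to 49.998%) lay above all Con-d21 libraries (46.9 to 48.5%), by 1.68 points on average, while the AME-d0 libraries (31.8 to 37.4%) overlapped the Con-d0 libraries (37.2 to 39.1%) and averaged 2.99 points lower. Over all upstream regions these differences were 0.101 and -1.20 points. Of the 13 regions, that of Reln differed most at d21, by 9.92 points. The median difference over the 13 was 1.19 points at d21, and 0.908 without AME-d21 replicate 4. At d0 this median was -1.66 points, and -0.461 without AME-d0 replicates 1 and 3.

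**Figure D1:**
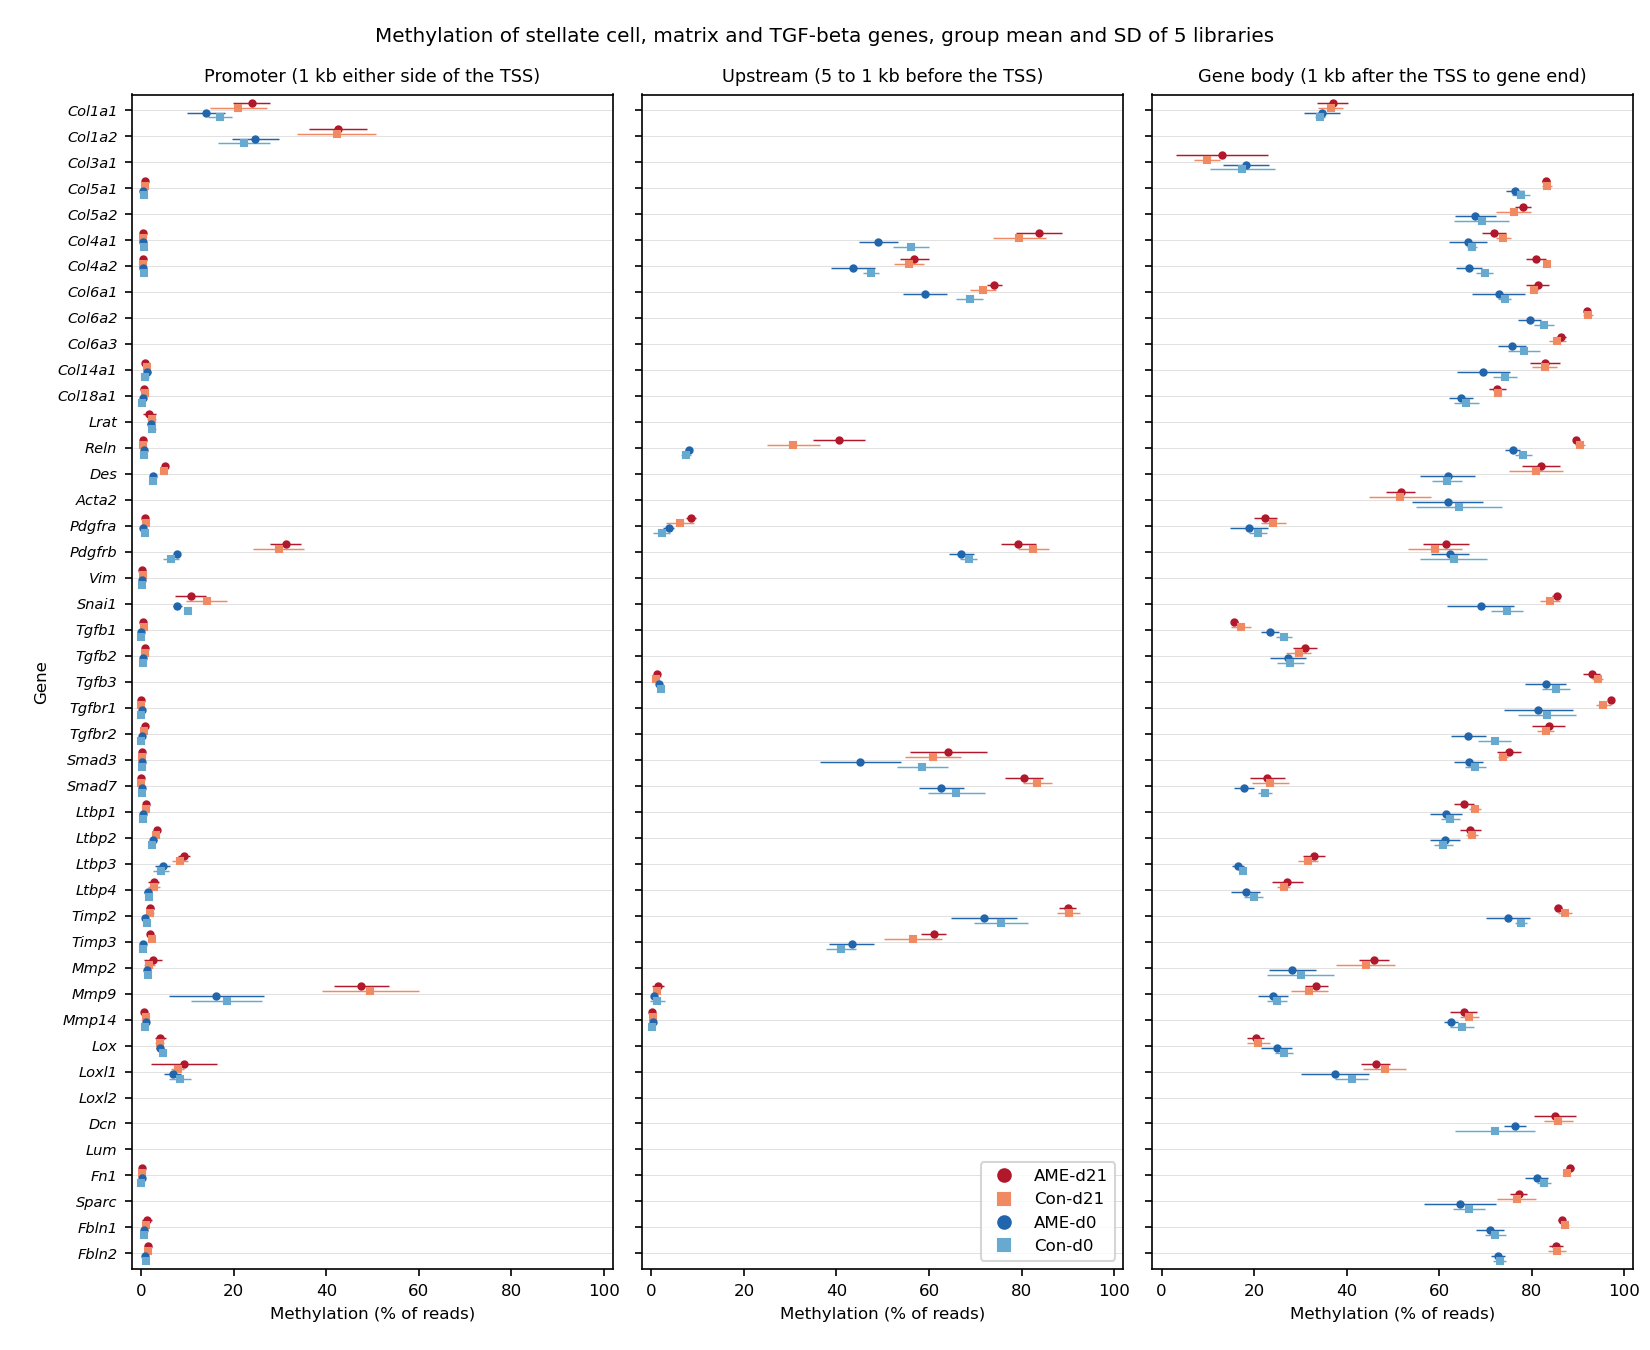
Methylation level (% of reads) of each gene's promoter, upstream region and body, as group mean with SD over 5 libraries, with groups in the order AME-d21, Con-d21, AME-d0 and Con-d0. Most promoters sit near 0 in all groups, most bodies sit above 60% at d21, and the bodies of Tgfb1, Acta2, Lox and Col3a1 have their d21 points left of their d0 points.

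The median promoter level was higher where CpG content was low, though single promoters overlapped. The promoters of Col1a1, Col1a2, Fbln2, Ltbp3, Mmp2, Mmp9 and Pdgfrb had a ratio of observed to expected CpGs under 0.35 (0.243 to 0.344), and the median of these 7 was 23.8% in AME-d21, 20.9% in Con-d21, 7.65% in AME-d0 and 6.39% in Con-d0. The other 26 promoters had ratios of 0.414 to 0.877 and medians of 0.864% in AME-d21, 0.984% in Con-d21, 0.457% in AME-d0 and 0.541% in Con-d0. The median over all protein-coding genes was a ratio of 0.474. In the first set Fbln2 and Mmp2 were at most 1.45% and 2.50% in all groups. In the other set Snai1 (ratio 0.677) was at 7.79 to 14.2% and Loxl1 (0.570) at 6.82 to 9.29%. The limit of 0.35 was chosen after the values were seen, and the 2 sets are given as a description.

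The first question was whether AME offspring differed from Con offspring of the same age. No member region was called (adjusted p under 0.05 after Benjamini-Hochberg correction over all regions of the same kind), either at d21 or at d0. Regions and bins were tested with limma throughout. This held for 34 promoters, 13 upstream regions and 39 bodies, and for 713 bins, which were called at an adjusted p under 0.05 and a difference of at least 10 points. In all protein-coding genes, too, 0.0% of promoters, 0.0% of upstream regions and 0.0% of bodies were called, as were 0.0% of the bins of the genome, at both ages. At an unadjusted p under 0.05, limma gave 1 promoter, 1 upstream region, no body and 30 bins among the members at d21, and 1 promoter, 3 upstream regions, 2 bodies and 41 bins at d0. The corresponding shares of all promoters, upstream regions, bodies and bins were 5.01%, 4.91%, 4.6% and 5.07% at d21, and 5.49%, 6.44%, 7.83% and 5.75% at d0.

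Single CpGs gave a similar picture. With a quasi-binomial logistic model (unadjusted p under 0.001 and at least 10 points), 0 of 2850 member CpGs were called at either age, against 0.000217% of the kept CpGs of the genome at d21 and 0.000542% at d0. Under the same model, 47 member CpGs at d21 (1.65%, against 1.61% of all CpGs) and 39 at d0 (1.37%, against 1.68%) had an unadjusted p under 0.05. Other tests at the same thresholds called few members. A likelihood-ratio test without overdispersion called 5 at d21 and 6 at d0 (background 0.149% and 0.198%), and limma called 2 at d21 and 0 at d0 (background 0.0365% and 0.0474%).

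The member region with the largest gap between AME-d0 and Con-d0 was the upstream region of Smad3, which encodes the main intracellular transducer of TGF-beta. Its methylation level was 45, 40.7, 33.8, 49.5 and 56.9% in the AME-d0 libraries, against 64.1, 59.8, 57.8, 61.5 and 49.7% in the Con-d0 libraries. Most AME-d0 libraries lay lower, and the groups overlapped, since AME-d0 replicate 5 lay above Con-d0 replicate 5. The difference was -13.4 points and did not pass correction (12 CpGs; unadjusted p = 0.00565, adjusted p = 0.697). Without AME-d0 replicates 1 and 3 it was -9.59 points (unadjusted p = 0.0444). It was -0.558 points with CpGs of at least 20 reads (unadjusted p = 0.917) and -2.09 points with the mean of CpG percents (unadjusted p = 0.470), so the size of the gap depended on these settings.

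Col6a1, which encodes a chain of the microfibrillar collagen VI, had the next largest gap, also in its upstream region. Its level was 52.2, 58.2, 65.3, 60.8 and 59.1% in AME-d0, against 66.7, 73.8, 66.8, 67.5 and 69.002% in Con-d0. The 2 groups did not overlap, and the difference was -9.63 points (15 CpGs; unadjusted p = 0.00634, adjusted p = 0.697). It was -9.39 points without AME-d0 replicates 1 and 3 (unadjusted p = 0.00987), but -3.39 points with CpGs of at least 20 reads (unadjusted p = 0.191) and -4.45 points with the mean of CpG percents (unadjusted p = 0.0709). The upstream region of Col4a1 (3 CpGs), a basement membrane collagen, differed by -6.98 points (unadjusted p = 0.0476, adjusted p = 0.763), and by -5.05 points without those 2 libraries (unadjusted p = 0.184).

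At d21, these 3 regions differed in the other direction, by 3.30 points in Smad3, 2.42 points in Col6a1 and 4.17 points in Col4a1, none of which passed correction (adjusted p = 0.976 each). The largest gap at d21 was in the upstream region of Reln, which encodes reelin, a secreted glycoprotein made by stellate cells in the liver. Its level was 47.2, 35.4, 34.1, 43.98 and 42.5% in AME-d21, against 32.98, 26.4, 32.9, 23.4 and 37.7% in Con-d21, so that the groups overlapped. The difference was 9.92 points (7 CpGs; unadjusted p = 0.0141, adjusted p = 0.952), and 9.07 points without AME-d21 replicate 4 (unadjusted p = 0.0302). The upstream region of Pdgfra, a receptor for platelet-derived growth factor, had the next smallest p, though not the next largest gap, with 8.56 ± 1.003% in AME-d21, against 6.18 ± 3.01% in Con-d21 (adjusted p = 0.952).

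Promoters of AME and Con offspring of the same age differed by at most 3.51 points at d21 and 2.98 points at d0, with median sizes of 0.132 and 0.161 points. The promoters with the smallest p were those of Smad3 (-0.109 points, unadjusted p = 0.0494), Mmp14 (-0.391 points, unadjusted p = 0.0686) and Snai1 (-3.51 points, unadjusted p = 0.123) at d21. At d0 they were those of Tgfbr2 (0.0627 points, unadjusted p = 0.0474), Snai1 (-2.27 points, unadjusted p = 0.0657) and Fn1 (0.160 points, unadjusted p = 0.119). Their adjusted p were 0.967 at d21 and 0.904 to 0.922 at d0. Snai1 encodes a transcription factor of epithelial-mesenchymal transition, and its promoter was 10.7 ± 3.34% in AME-d21, 14.2 ± 4.43% in Con-d21, 7.79 ± 1.01% in AME-d0 and 10.1 ± 0.3398% in Con-d0.

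Between AME-d21 and Con-d21, 19 of 39 bodies were lower in AME and 20 were higher, with sizes up to 3.17 points. The smallest p at d21 were for the bodies of Tgfbr1 (1.70 points), Col4a2 (-2.21 points) and Timp2 (-1.46 points), each with an adjusted p that rounds to 1. At d0, 34 of 39 bodies were lower in AME offspring, with a median of -1.65 points, and 76.6% of all protein-coding bodies were also lower, with a median of -1.44 points. Without AME-d0 replicates 1 and 3, 23 of 39 were lower, with a median of -0.159 points. After each library was centred on its own median, taken over bodies with mean methylation of at least 20%, 18 were lower and 21 higher. The bodies with the smallest p at d0 were those of Smad7 (-4.58 points, unadjusted p = 0.01004), Tgfbr2 (-5.63 points, unadjusted p = 0.0324) and Snai1 (-5.73 points, unadjusted p = 0.0862). Their adjusted p were 0.610 to 0.655.

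The bins with the smallest p held 1 or 2 CpGs each. At d21 they were in Col4a2 (15.6 points, unadjusted p = 0.000217), Reln (7.88 points, unadjusted p = 0.0028) and Ltbp1 (-6.06 points, unadjusted p = 0.00372), with an adjusted p of 0.969. The Col4a2 bin, with 1 CpG in the gene body, was at 100, 100 and 100% in the 3 AME-d21 libraries with at least 10 reads, against 87.5, 83.3, 80, 81.2 and 90% in Con-d21. In AME-d0 the same CpG was at 70.6, 66.7, 60, 72.7 and 75%, against 88.2, 81.8 and 83.3% in the 3 Con-d0 libraries with at least 10 reads. The groups did not overlap at either age, and the direction was opposite at d21 and d0. At d0 the bins with the smallest p were in Tgfb3 (-19.7 points), Col18a1 (-10.9 points) and Ltbp4 (6.95 points), with unadjusted p of 0.00111, 0.00201 and 0.00203 and an adjusted p of 0.857.

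Whether the change with age differed between AME and Con offspring was tested in all 20 libraries as an interaction. No member was called among promoters (background 0.00788%), upstream regions, bodies or bins (background 0.0% each). At an unadjusted p under 0.05, limma gave 0 promoters, 3 upstream regions, 0 bodies and 32 bins, where it gave 4.98% of all promoters, 5.48% of upstream regions, 6.36% of bodies and 5.18% of bins. The 3 upstream regions were again those of Col6a1 (12.05 points, unadjusted p = 0.00311, adjusted p = 0.847), Smad3 (16.7 points, unadjusted p = 0.0121, adjusted p = 0.858) and Col4a1 (11.2 points, unadjusted p = 0.0319, adjusted p = 0.859). Without AME-d0 replicates 1 and 3 they were 11.8, 12.9 and 9.22 points (unadjusted p = 0.00344, 0.0543 and 0.089). The smallest p of the bins was that of the Col4a2 CpG above, with 31.0 points (unadjusted p = 5.12e-06, adjusted p = 0.923). In the promoters and bodies, the smallest p were for Mmp14 (-0.544 points), Col14a1 (-0.877 points) and Col1a1 (5.87 points), and for Snai1 (7.21 points), Tgfbr2 (6.27 points) and Smad7 (3.88 points).

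**Figure D2:**
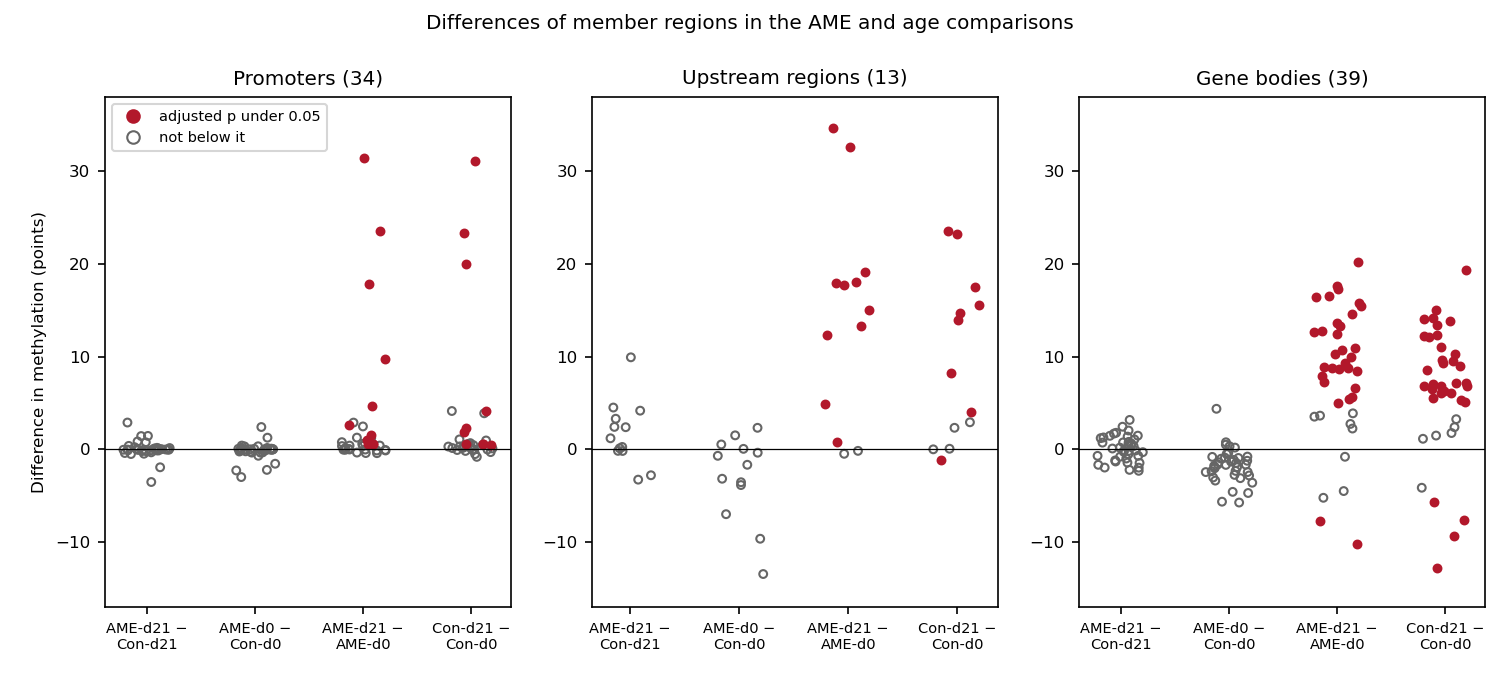
Difference in methylation (percentage points) of the 34 promoters, 13 upstream regions and 39 bodies in 4 comparisons, AME-d21 minus Con-d21, AME-d0 minus Con-d0, AME-d21 minus AME-d0 and Con-d21 minus Con-d0, with 1 point per region, red where the adjusted p was under 0.05. The comparisons of AME with Con hold no red point, whereas both comparisons of ages hold many, mostly above 0 as measured; relative to the centred libraries 17 regions were higher and 14 lower in AME and 19 higher and 18 lower in Con offspring.

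The second question was how the genes changed between birth and weaning. In AME offspring, 11 promoters rose and 0 fell, 11 upstream regions rose and 0 fell, and 29 bodies rose and 2 fell. In Con offspring, 10 promoters rose and 0 fell, 8 upstream regions rose and 1 fell, and 29 bodies rose and 4 fell. In all protein-coding genes of AME offspring, 14.7% of promoters rose and 2.88% fell, 55.8% of upstream regions rose and 5.53% fell, and 66.5% of bodies rose and 3.87% fell. In those of Con offspring, 15.0% of promoters rose and 3.7% fell, 52.2% of upstream regions rose and 6.44% fell, and 62.4% of bodies rose and 5.6% fell. The members' shares are set beside these as a description only, since the members were chosen with earlier results of these data known. In AME offspring, 11 of 34 promoters and 11 of 13 upstream regions are larger shares than the background, and 29 of 39 bodies are a share near it. Both comparisons called the same 8 promoters, 8 upstream regions and 28 bodies as higher, and 2 bodies as lower.

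The median change of the member promoters was 0.542 points in AME and 0.453 points in Con offspring, beside 0.026 and 0.024 points over all promoters. For upstream regions it was 15.0 points in AME and 8.26 points in Con offspring, beside 6.73 and 5.39 points over all. For bodies it was 8.79 points in AME and 6.87 points in Con offspring, beside 7.92 and 6.28 points over all. Methylation was thus higher at d21 over protein-coding genes in general. On the log2 scale of methylated over unmethylated reads, each library's median was taken over features of a kind with mean methylation of at least 20%. This median was higher at d21 in AME offspring by 0.61 in promoters, 0.89 in upstream regions, 0.79 in bodies and 0.997 in bins. In Con offspring it was higher by 0.49, 0.80, 0.66 and 0.847.

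Relative to that shift, with each library centred on its median, 17 regions rose and 14 fell in AME offspring (51 and 2 without centring), and 19 rose and 18 fell in Con offspring (47 and 5 without centring). Centred promoters numbered 4 higher and 1 lower in AME and 6 higher and 2 lower in Con, centred upstream regions 3 and 2 in AME and 3 and 3 in Con, and centred bodies 10 and 11 in AME and 10 and 13 in Con. Over all protein-coding genes, 5.81% of promoters were called higher and 9.39% lower after centring in AME (7.27% and 9.84% in Con), 13.8% and 18.8% of upstream regions (14.7% and 21.3% in Con), and 19.5% and 21.6% of bodies (21.7% and 25.4% in Con), so that the counts of bodies were near the background. The promoters that rose after centring were those of Mmp9, Pdgfrb, Tgfbr2 and Timp3 in both, with Col18a1 and Col1a2 in Con offspring alone, and the upstream regions were those of Col4a1, Reln and Timp2 in both. Below, "rose" and "fell" refer to the values as measured, and calls that changed after centring are given with each group of member genes. Leaving out AME-d0 replicates 1 and 3 lowered the regions called in AME offspring to 44, and leaving out AME-d21 replicate 4 gave 49.

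Among TGF-beta ligands, receptors and SMADs (7 genes), Tgfb1 lost methylation in its body while the receptors gained it. The Tgfb1 body (64 CpGs, chr7:25688003-25705077), which belongs to the main fibrogenic TGF-beta, was at 16.8, 15.2, 14.9, 16.4 and 15.5% in AME-d21, against 22.1, 21.7, 22.3, 26.4 and 24.7% in AME-d0. It was at 13.5, 18.2, 16.8, 19.2 and 18.1% in Con-d21, against 27.5, 25.7, 28.5, 23.9 and 27.03% in Con-d0. All d21 libraries lay below all d0 libraries of the same maternal group. The body fell by 7.69 points in AME offspring (log2 difference -0.71 ± 0.14 SE, adjusted p = 5.54e-04) and by 9.36 points in Con offspring (log2 difference -0.81 ± 0.13 SE, adjusted p = 1.86e-04). It also fell after centring in both.

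The bins of Tgfb1 that fell lay in the middle and at the far end of the gene. A bin of 15 CpGs over the end of the coding sequence and the 3′ UTR (chr7:25704801-25705000) was at 14.8, 9.66, 12.2, 11.5 and 11.3% in AME-d21, against 38.5, 36.98, 33.5, 37.9 and 40.2% in AME-d0. In Con-d21 it was at 3.57, 8.91, 18.9, 16.1 and 9.36%, against 37.5, 42.02, 47.98, 44.4 and 49.3% in Con-d0. The d21 libraries were all far below the d0 libraries, by 25.5 points in AME (adjusted p = 3.39e-05) and 32.9 points in Con offspring (adjusted p = 1.57e-04). A bin in the middle of the gene (chr7:25696801-25697000) also fell, with means of 58.99% in AME-d21, 59.8% in Con-d21, 73.6% in AME-d0 and 73.6% in Con-d0. A bin 2.7 kb after the TSS rose instead, with means of 13.9% in AME-d21, 15.2% in Con-d21, 3.46% in AME-d0 and 2.699% in Con-d0. The promoter of Tgfb1 was at most 0.499% in all groups.

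The receptors Tgfbr1 and Tgfbr2 moved the other way. The body of Tgfbr2 (21 CpGs) was at 87.01, 77.8, 85.3, 83.02 and 85.1% in AME-d21, against 64.04, 66.7, 61.6, 71.7 and 67.7% in AME-d0, and it rose by 17.3 points (adjusted p = 3.36e-05). In Con-d21 it was at 84.1, 84.4, 80.2, 84.2 and 82.1%, against 74, 68.3, 76.5, 72.4 and 68.7% in Con-d0, a rise of 11.05 points (adjusted p = 1.19e-04). The groups of the 2 ages did not overlap in either. The body of Tgfbr1 (5 CpGs) averaged 97.2 ± 0.646% in AME-d21, 95.5 ± 1.54% in Con-d21, 81.4 ± 7.47% in AME-d0 and 83.3 ± 6.34% in Con-d0, and rose in both. With the body taken from the TSS itself, the Tgfbr1 call in AME offspring was lost (8.23 points, adjusted p = 0.196) and the rise of Tgfbr2 there was 5.79 points. The promoter of Tgfbr2 rose at a very low level, with means of 0.7202% in AME-d21, 0.635% in Con-d21, 0.0957% in AME-d0 and 0.03299% in Con-d0 (adjusted p = 0.00253 in AME and 2.91e-05 in Con). In Con offspring this call was lost with a narrower promoter around the TSS (0.0767 points, adjusted p = 0.264). The promoter of Tgfb2, a ligand, rose by 0.454 points in Con offspring (adjusted p = 0.0245) and was not called after centring.

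Smad3 held the most kept CpGs of all members, 183 in 54 bins, and sites within it moved both ways. Its body averaged 75.1 ± 2.49% in AME-d21, 73.9 ± 1.08% in Con-d21, 66.3 ± 3.21% in AME-d0 and 67.8 ± 2.29% in Con-d0. It rose by 8.75 points in AME (adjusted p = 0.00202) and by 6.08 points in Con offspring (adjusted p = 0.00313), but was called lower in Con offspring after centring. Over the bins of all protein-coding genes, 28.9% rose and 3.08% fell in AME, and 24.5% rose and 3.51% fell in Con offspring. Of the 54 bins of Smad3, 25 rose and 4 fell in AME offspring, and 21 rose and 6 fell in Con offspring. In the gained intron window printed above, the 3 CpGs were at 88.4, 86.6, 84.8, 81.6 and 74.7% in AME-d21, against 25.4, 35.5, 33.3, 38.5 and 37.3% in AME-d0. They were at 88.04, 78.2, 77.8, 81.8 and 83.9% in Con-d21, against 32.1, 44.7, 39.4, 42.1 and 37.4% in Con-d0. The groups lay far apart, with rises of 49.2 points in AME (adjusted p = 5.34e-06) and 42.8 points in Con offspring (adjusted p = 8.64e-06).

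In the lost intron window of Smad3, 2 CpGs were at 28, 28.6, 34.4, 37.5 and 27.7% in AME-d21, against 58.3, 70.4, 72.1, 70.3 and 62.9% in AME-d0. In Con-d21 they were at 42.9, 38, 52.9, 29.3 and 39.4%, against 61.3, 70.6, 70, 59.6 and 60.5% in Con-d0. Each d21 library was below each d0 library of its maternal group, with falls of 35.6 points in AME (adjusted p = 1.01e-04) and 23.9 points in Con offspring (adjusted p = 0.00266). The upstream region of Smad3 was called higher in AME offspring (19.1 points, adjusted p = 0.00285) and not in Con offspring (2.33 points, adjusted p = 0.596), and the test of that difference is the interaction given above, which did not pass correction. With CpGs of at least 20 reads the rise in AME offspring was 10.1 points. After centring, or with the mean of CpG percents, the call in AME offspring was lost (adjusted p = 0.493 and 0.0677), and after centring the region was called lower in Con offspring.

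Smad7, the inhibitory SMAD, rose in its upstream region, with means of 80.6% in AME-d21, 83.4% in Con-d21, 62.7% in AME-d0 and 65.8% in Con-d0. This call was lost after centring (adjusted p = 0.204 in AME and 0.0529 in Con). Its body rose by 5.02 points in AME offspring (adjusted p = 0.0362) and was not called in Con offspring (1.14 points, adjusted p = 0.664). A bin with 1 CpG in an intron of Smad7 was among those that lost most, with 17.6 ± 4.72% in AME-d21, 17.2 ± 6.06% in Con-d21, 57.6 ± 8.71% in AME-d0 and 58.8 ± 6.32% in Con-d0. Tgfb3, a ligand, fell in its upstream region at a low level, by 1.10 points in Con offspring (0.913% in Con-d21, against 2.01% in Con-d0, adjusted p = 0.0104), and it was called lower in both after centring. The Tgfb3 body rose in both. Over the 7 genes, 5 bodies rose and 1 fell in AME and 4 rose and 1 fell in Con offspring, of 7 tested. Of all 12510 tested bodies, 8319 rose and 484 fell in AME, and 7811 rose and 700 fell in Con offspring. The counts of rises in this group were thus near the background. After centring, Tgfbr1 and Tgfbr2 rose and Tgfb1 and Tgfb2 fell among the bodies of AME offspring, and Tgfb3 and Tgfbr1 rose and Smad3, Smad7, Tgfb1 and Tgfb2 fell among those of Con offspring.

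**Figure D3:**
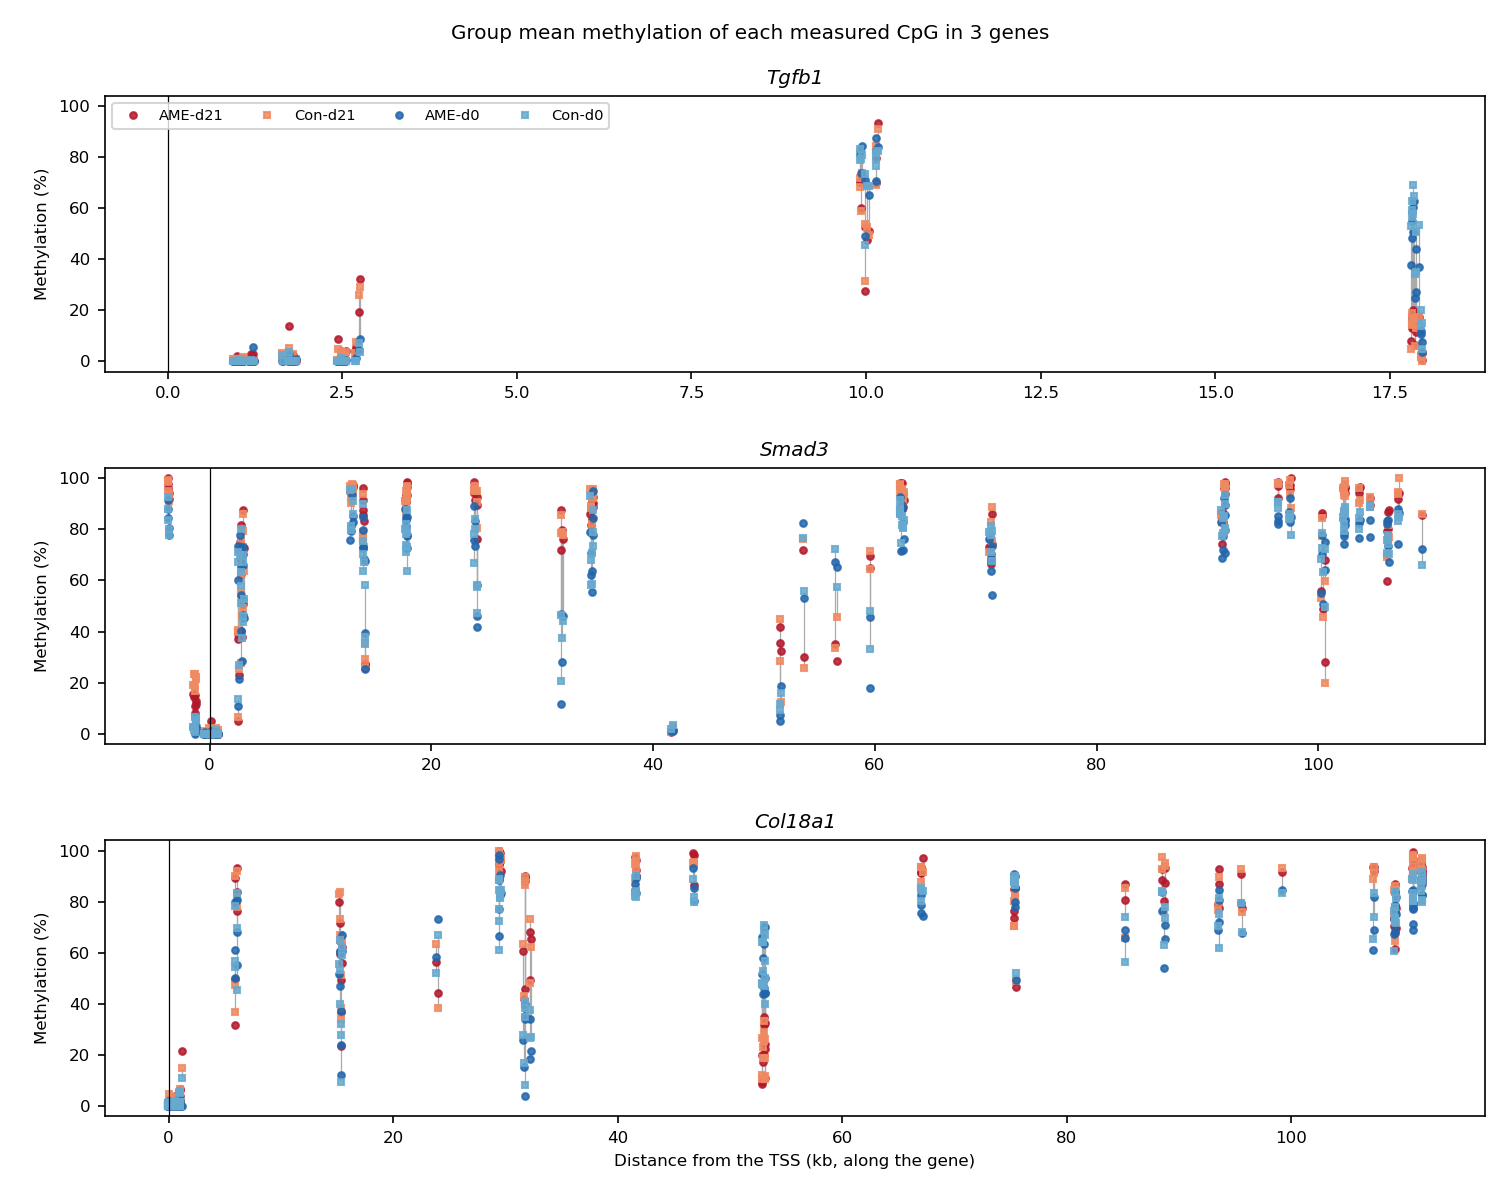
Group mean methylation (% of reads) of each kept CpG of Tgfb1, Smad3 and Col18a1, by distance from the TSS in kb along the gene, with a line at the TSS and 1 colour per group. Around the TSS all groups sit near 0, the far end of Tgfb1 has most of its d21 points below its d0 points, and Smad3 and Col18a1 hold separate stretches that are higher or lower at d21.

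Of the LTBPs, which store latent TGF-beta in the matrix, Ltbp3 gained the most methylation. The body of Ltbp3 (91 CpGs) was at 31.1, 36.6, 31.02, 32.3 and 33.7% in AME-d21, against 15.3, 17.96, 15.3, 16.8 and 17.5% in AME-d0. It was at 30.9, 31.2, 34.6, 32.8 and 28.8% in Con-d21, against 17.97, 16.9, 17.4, 17.96 and 17.6% in Con-d0. The d21 libraries were all above the d0 libraries, by 16.4 points in AME (log2 difference 1.31 ± 0.14 SE, adjusted p = 6.16e-06) and 14.1 points in Con offspring (log2 difference 1.12 ± 0.10 SE, adjusted p = 3.33e-06). Its promoter averaged 9.24 ± 1.34% in AME-d21, 8.39 ± 1.7002% in Con-d21, 4.598 ± 1.605% in AME-d0 and 4.26 ± 1.74% in Con-d0 and was called higher in both, which was lost after centring (adjusted p = 0.209 and 0.179). In AME offspring it was also lost without AME-d0 replicates 1 and 3 (adjusted p = 0.0794).

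The bodies of Ltbp1, Ltbp2 and Ltbp4 rose by 5.27, 6.10 and 6.52 points in Con offspring, and those of Ltbp2 and Ltbp4 rose by 5.46 and 8.92 points in AME offspring. The Ltbp1 body differed by 3.88 points in AME offspring (adjusted p = 0.131). After centring, the bodies of Ltbp1 and Ltbp2 were called lower in both AME and Con offspring, so their gain was smaller than the shift taken off. The body of Ltbp3 still rose in both, and that of Ltbp4 was not called in either. The Ltbp1 promoter rose by 0.545 points in AME (adjusted p = 0.0263) and 0.575 points in Con offspring (adjusted p = 0.00856), and not after centring. Over the 4 LTBP genes, 35 of 112 bins rose and 0 fell in AME, and 25 rose and 1 fell in Con offspring, shares at or below those of the genome (32.6% and 27.3% rose).

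Of the 8 markers of stellate cells and myofibroblasts, Reln, Des and Pdgfrb changed most. The upstream region of Reln was at 47.2, 35.4, 34.1, 43.98 and 42.5% in AME-d21, against 6.98, 8.89, 8.33, 7.49 and 8.503% in AME-d0, and it rose by 32.6 points (log2 difference 2.92 ± 0.21 SE, adjusted p = 1.12e-07). In Con-d21 it was at 32.98, 26.4, 32.9, 23.4 and 37.7%, against 7.598, 8, 8.89, 5.99 and 7.06% in Con-d0, a rise of 23.2 points (log2 difference 2.40 ± 0.21 SE, adjusted p = 6.49e-07). No library of either age overlapped the other age. Of its 7 CpGs, 6 lie in the window printed above, 1.3 to 1.5 kb before the TSS, which rose by 34.3 points in AME and 25.7 points in Con offspring. The Reln promoter next to it (59 CpGs) was at most 0.646% in all groups and was called lower in Con offspring after centring. The Reln body rose as well, with 89.5 ± 0.593% in AME-d21, 90.5 ± 1.09% in Con-d21, 75.9 ± 1.66% in AME-d0 and 78.2 ± 1.81% in Con-d0, and both regions also rose after centring. With the body taken from the TSS the rise in Con offspring was 6.97 points.

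Des encodes desmin, the intermediate filament used to mark rodent stellate cells. Its body (10 CpGs) was at 79.4, 78.8, 83.1, 88.8 and 80% in AME-d21, against 59.5, 67.9, 53.1, 62.1 and 66.7% in AME-d0. The Con-d21 libraries had 85.1, 83.5, 76.9, 86.5 and 72.7%, against 57.1, 62.3, 65.7, 63.1 and 60% in Con-d0. This was the largest rise of a member body in both, by 20.2 points in AME (adjusted p = 8.26e-05) and 19.3 points in Con offspring (adjusted p = 1.16e-04), without overlap, and it was kept after centring. With the body taken from the TSS, which adds promoter CpGs, it was 4.79 points in AME and 3.54 points in Con offspring. The Des promoter (66 CpGs) averaged 5.199 ± 0.451% in AME-d21, 4.82 ± 0.464% in Con-d21, 2.53 ± 0.484% in AME-d0 and 2.55 ± 0.374% in Con-d0, and its rise was lost after centring (adjusted p = 0.201 in AME and 0.170 in Con).

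Pdgfrb, the receptor through which platelet-derived growth factor drives stellate cell growth, had one of the few member promoters with a change of over 10 points. Its 11 promoter CpGs were at 28.7, 36.8, 30.1, 29.4 and 30.98% in AME-d21, against 7.83, 6.92, 7.904, 7.78 and 7.81% in AME-d0. They were at 25.8, 22.7, 35.2, 30 and 34.9% in Con-d21, against 5.57, 8.98, 5.65, 4.55 and 7.19% in Con-d0. The ages lay far apart, with a rise of 23.5 points in AME (log2 difference 2.40 ± 0.21 SE, adjusted p = 4.67e-07) and 23.4 points in Con offspring (log2 difference 2.60 ± 0.24 SE, adjusted p = 1.99e-07). Its upstream region rose by 12.4 points in AME and 13.96 points in Con offspring, which after centring was not called in either. A promoter taken from 5 kb before the TSS to the TSS gave the same values as the upstream region, so that setting did not check the promoter call of Pdgfrb. Its body was not called (-0.796 points in AME, -4.13 points in Con) but was called lower in both after centring. A bin of 4 CpGs in a coding exon of Pdgfrb fell, with means of 19.6% in AME-d21, 22.8% in Con-d21, 47.2% in AME-d0 and 53.1% in Con-d0.

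Acta2 encodes alpha smooth muscle actin, the marker of myofibroblasts. Its body (7 CpGs) was at 52.5, 53.3, 49.5, 47.6 and 55.6% in AME-d21, against 48.5, 64, 68.2, 63.4 and 65.2% in AME-d0. In Con-d21 it was at 61.1, 42.98, 48.2, 51.3 and 54.04%, against 73.2, 66.4, 71.03, 50 and 61.03% in Con-d0. The ages overlapped in both, and the body fell by 10.2 points in AME (adjusted p = 0.0164) and 12.8 points in Con offspring (adjusted p = 0.0185). With the mean of CpG percents in place of summed reads, neither was called (adjusted p = 0.529 and 0.100), whereas with CpGs of at least 20 reads the differences were -19.5 points in AME and -21.02 points in Con offspring. The body was called lower in both after centring. Pdgfra rose in its upstream region, with means of 8.56% in AME-d21, 6.18% in Con-d21, 3.71% in AME-d0 and 2.20% in Con-d0, which was lost after centring, and its body was called lower in Con offspring after centring. Snai1 rose in its body by 16.5 points in AME and 9.31 points in Con offspring, a call kept after centring in AME offspring alone. With the body taken from the TSS, the rise of Snai1 in AME offspring was 8.96 points. The promoters of Vim (an intermediate filament), Lrat (the enzyme that esterifies retinol), Pdgfra and Snai1 were not called.

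Fibrillar collagens are the main product of activated stellate cells. All 3 of their tested promoters rose in AME and 1 rose in Con offspring, while 2 of 4 bodies rose in both and 1 fell in Con offspring. Of all 12688 tested promoters, 1859 rose in AME and 1897 in Con offspring. Of all 12510 tested bodies, 8319 rose and 484 fell in AME, and 7811 rose and 700 fell in Con offspring. Col1a2 had 5 promoter CpGs, all in the window printed above, at 33.96, 47.5, 40.8, 40.2 and 49.6% in AME-d21, against 22.6, 32.1, 25.7, 18.1 and 24.8% in AME-d0. They were at 34.9, 44.95, 37.99, 55.9 and 37.3% in Con-d21, against 19.5, 24.8, 15.97, 20.5 and 30.5% in Con-d0. No d21 library overlapped a d0 library, and the promoter rose by 17.8 points in AME (log2 difference 1.17 ± 0.25 SE, adjusted p = 0.00301) and 19.9 points in Con offspring (log2 difference 1.35 ± 0.26 SE, adjusted p = 8.13e-04). The call was lost after centring in AME (adjusted p = 0.141) and with CpGs of at least 5 reads in Con offspring (adjusted p = 0.084).

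Col1a1, which encodes the other chain of collagen I, averaged 23.8 ± 3.95% in AME-d21, 20.9 ± 6.16% in Con-d21, 14.1 ± 4.13% in AME-d0 and 17.05 ± 2.57% in Con-d0 in its promoter. It rose in AME offspring (9.76 points, adjusted p = 0.0176) and was not called in Con offspring (3.89 points, adjusted p = 0.471). The AME call was lost without AME-d0 replicate 1 (adjusted p = 0.0524), after centring (adjusted p = 0.404) and with the mean of CpG percents (adjusted p = 0.0762). Col5a1 rose in AME by 0.538 points in its promoter (adjusted p = 0.0335), and by 6.60 points in AME and 5.59 points in Con offspring in its body. The promoter call of Col5a1 was lost after centring. The body of Col5a2, like Col5a1 a chain of collagen V, rose by 10.3 points in AME and 6.87 points in Con offspring.

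The Col3a1 body (3 CpGs) fell by 7.62 points in Con offspring (adjusted p = 0.0352), with 9.84% in Con-d21 and 17.5% in Con-d0, and was not called in AME offspring (-5.21 points, adjusted p = 0.163). This fall was lost without Con-d21 replicate 2 or 5 or without Con-d0 replicate 1, 2 or 5 (adjusted p up to 0.0876), with the replicate block (adjusted p = 0.0774), with the spread from all 20 libraries (adjusted p = 0.0982) and with the alternative regions (adjusted p = 0.0512), and it turned to 0.634 points with CpGs of at least 5 reads. Among the bodies of this group after centring, those of Col1a1 and Col3a1 were called lower in both AME and Con offspring, and none was called higher.

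Basement membrane and other collagens (7 genes) rose in all of their bodies, 7 of 7 in both AME and Con offspring, where 66.5% and 62.4% of all bodies rose. The changes ran from 5.67 points in Col4a1 to 14.6 points in Col4a2 in AME, and from 6.33 points in Col6a1 to 13.4 points in Col4a2 in Con offspring. After centring, Col4a2 and Col6a2 rose in both, Col4a1 was called lower in AME offspring, and the others were not called. The upstream region of Col4a1 (3 CpGs) was at 84.6, 91.9, 79.4, 81.9 and 80.8% in AME-d21, against 43.8, 50.9, 48.6, 46.97 and 55.1% in AME-d0, and rose by 34.7 points (adjusted p = 3.94e-06). In Con-d21 it was at 70, 82.4, 82.1, 79.1 and 84.2%, against 52.1, 52.4, 60, 55.7 and 60% in Con-d0, a rise of 23.5 points (adjusted p = 3.59e-05). Col6a1 had an upstream rise of 15.0 points in AME offspring (adjusted p = 0.000444), and differed by 2.92 points in Con offspring (adjusted p = 0.341). With CpGs of at least 20 reads the rise in AME offspring was 9.88 points, and after centring the AME call was lost (adjusted p = 0.748) and the region was called lower in Con offspring. The upstream region of Col4a2 rose by 13.3 points in AME and 8.26 points in Con offspring, but its log2 difference turned to -0.12 in AME and -0.32 in Con offspring after centring.

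Of the 42 bins of Col18a1, whose product is cleaved to endostatin, 15 rose and 5 fell in AME, and 15 rose and 4 fell in Con offspring. Over the bins of all protein-coding genes, 28.9% rose and 3.08% fell in AME, and 24.5% rose and 3.51% fell in Con offspring. The Col18a1 promoter rose by 0.618 points in Con offspring (adjusted p = 0.00134) and was not called in AME offspring (adjusted p = 0.0766). The call in Con offspring was lost with a promoter from 5 kb before the TSS to the TSS (0.147 points, adjusted p = 0.263). In the gained intron window printed above, 5 CpGs were at 73.6, 82.3, 79.9, 72.2 and 72.9% in AME-d21, against 34.2, 30.3, 30, 30.8 and 28.04% in AME-d0. They were at 68.9, 78.6, 75.7, 79.4 and 75.6% in Con-d21, against 24.3, 20.4, 35, 37.4 and 42.5% in Con-d0. The rise was 45.5 points in AME (adjusted p = 5.47e-06) and 43.7 points in Con offspring (adjusted p = 2.68e-05), without overlap. In the lost window, in a coding exon, 7 CpGs were at 22.4, 24.8, 29.6, 28.6 and 21.9% in AME-d21, against 56.9, 61.2, 46.7, 53.8 and 59.2% in AME-d0. They were at 23.6, 29.9, 19.6, 25.4 and 16.1% in Con-d21, against 51.1, 57.1, 54.5, 63.8 and 60.9% in Con-d0. Each d21 library was below each d0 library, with falls of 30.1 points in AME (adjusted p = 1.75e-04) and 34.6 points in Con offspring (adjusted p = 5.94e-05), and the next bin (chr10:77113601-77113800) fell by 40.1 points in AME and 37.2 points in Con offspring.

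**Figure D4:**
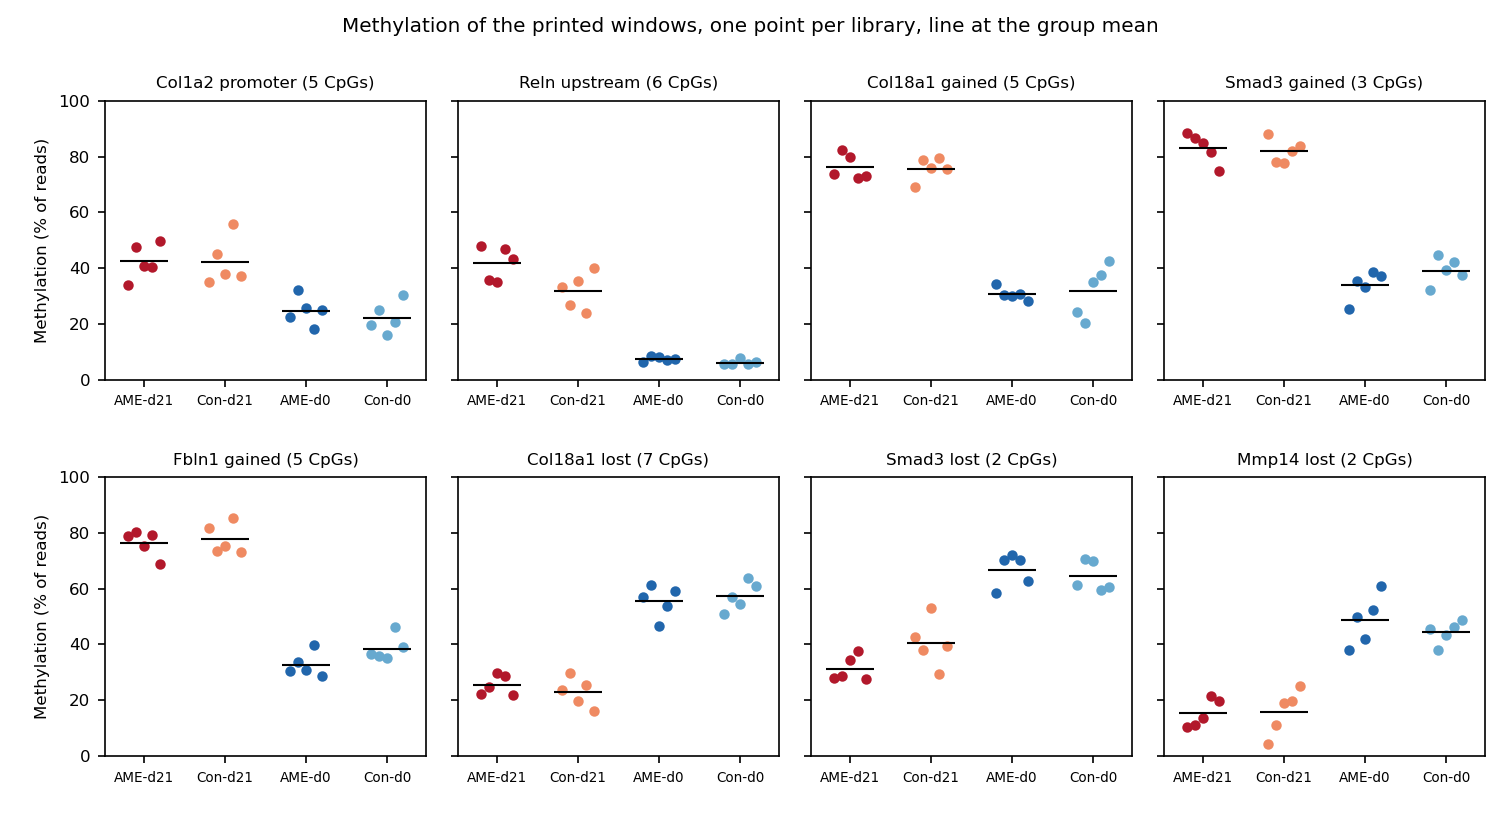
Methylation level (% of reads) of the 8 windows whose sequences are printed, with 1 point per library, a line at the group mean, and groups in the order AME-d21, Con-d21, AME-d0 and Con-d0. In the Col1a2, Reln, Col18a1 gained, Smad3 gained and Fbln1 gained windows the d21 libraries sit above the d0 libraries, and in the 3 lost windows they sit below. All windows but that of Col1a2 were chosen for such a separation.

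Matrix proteases and their inhibitors (5 genes) included the promoter with the largest rise. Mmp9, a gelatinase, had 3 kept promoter CpGs 103 to 196 bp after the TSS, at 37.5, 52.5, 47.9, 50 and 50% in AME-d21, against 30, 2.63, 10.8, 18.2 and 19.4% in AME-d0. They were at 54.8, 46.2, 36.4, 46 and 64.3% in Con-d21, against 29.7, 9.21, 18.3, 14.1 and 20.8% in Con-d0. The ages did not overlap, and the promoter rose by 31.4 points in AME (log2 difference 2.34 ± 0.42 SE, adjusted p = 7.11e-04) and 31.1 points in Con offspring (log2 difference 2.12 ± 0.32 SE, adjusted p = 7.29e-05). It rose after centring too. Its upstream region rose by 0.812 points in AME offspring (adjusted p = 0.0419), and its body rose by 9.34 points in AME and 7.07 points in Con offspring, calls that were lost after centring. With a promoter taken from 5 kb before the TSS to the TSS, which leaves these CpGs out, it was not called in either (adjusted p = 0.0895 and 0.784).

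Mmp2, the gelatinase that stellate cells secrete, rose in its body, with 45.9 ± 3.25% in AME-d21, 44.1 ± 6.31% in Con-d21, 28.3 ± 5.03% in AME-d0 and 30.05 ± 7.25% in Con-d0. This was lost after centring in AME (adjusted p = 0.167) and in Con offspring (adjusted p = 0.43), and in Con offspring also with the mean of CpG percents (adjusted p = 0.0833) and with the body taken from the TSS (4.12 points, adjusted p = 0.174). The rise in AME offspring was 8.55 points with the body taken from the TSS, and with CpGs of at least 5 reads it was 10.1 points in AME and 8.30 points in Con offspring. Mmp14, a membrane-bound protease that activates pro-MMP2, was not called in any region as measured. After centring its body was called lower in both, and its promoter and upstream region in AME offspring. The Mmp14 promoter was near 0, at 0.595% in AME-d21, against 0.992% in AME-d0, as was its upstream region, at 0.105% against 0.263%. The 2 CpGs of its lost intron window were at 10.3, 11.1, 13.6, 21.7 and 19.6% in AME-d21, against 37.9, 50, 42, 52.4 and 61.1% in AME-d0. In Con-d21 they were at 4.26, 11.1, 18.9, 19.6 and 25%, against 45.7, 38, 43.3, 46.4 and 48.6% in Con-d0. The ages did not overlap, with falls of 33.4 points in AME (adjusted p = 1.26e-04) and 28.6 points in Con offspring (adjusted p = 0.00101).

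The inhibitors Timp2 and Timp3 rose in their upstream regions. Timp2 averaged 90.002 ± 1.85% in AME-d21, 90.2 ± 2.55% in Con-d21, 71.9 ± 7.14% in AME-d0 and 75.5 ± 5.85% in Con-d0 there, and it rose after centring as well. Its body rose by 10.9 points in AME and 9.53 points in Con offspring, and after centring in Con offspring alone. Timp3 averaged 61.0% in AME-d21, 56.5% in Con-d21, 43.3% in AME-d0 and 41.0% in Con-d0, but this rise was lost after centring (adjusted p = 0.537 in AME and 0.698 in Con). The promoter of Timp3 rose at a low level, with 1.92 ± 0.704% in AME-d21, 2.24 ± 0.543% in Con-d21, 0.351 ± 0.196% in AME-d0 and 0.334 ± 0.197% in Con-d0 (adjusted p = 2.39e-04 in AME and 3.78e-05 in Con). With a promoter from 5 kb before the TSS to the TSS, the rise of Timp3 was 17.7 points in AME and 15.5 points in Con offspring. These are the values of its upstream region, so that setting did not check the promoter call. The promoter of Timp2 reached an adjusted p of 0.04999 in AME offspring, and that call was lost without any 1 of 7 libraries (AME-d0 replicates 1, 2 and 4 and AME-d21 replicates 2, 3, 4 and 5), with adjusted p up to 0.134. It was also lost with the replicate block (adjusted p = 0.0976), after centring (adjusted p = 0.395) and in 5 other alternatives (adjusted p of 0.0623 to 0.344).

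Lysyl oxidases, which cross-link collagen, had no called promoter as measured. After centring that of Lox was called lower in Con offspring, at a low level (3.95% in Con-d21, against 4.76% in Con-d0). The Lox body fell by 5.62 points in Con offspring (20.9% in Con-d21, against 26.5% in Con-d0, adjusted p = 0.00762) and differed by -4.49 points in AME offspring (20.4% in AME-d21, against 24.9% in AME-d0, adjusted p = 0.0562). With the body taken from the TSS the call in Con offspring was lost (-2.25 points, adjusted p = 0.0548). The body as first taken was called lower in both after centring. The Loxl1 body rose by 8.79 points in AME and 7.15 points in Con offspring, and not after centring. Loxl2 had a single kept CpG, in a coding exon (chr14:69692401-69692600), at 46.2, 20, 0, 14.3 and 8% in AME-d21, against 38.9, 42.1, 40, 47.4 and 68.4% in AME-d0. It was at 16.7, 21.7, 8.33, 10.5 and 9.52% in Con-d21, against 40, 46.2, 68, 57.1 and 52.4% in Con-d0. It fell by 29.7 points in AME, where the ages overlapped, and by 39.4 points in Con offspring, where they did not.

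Among proteoglycans and matrix glycoproteins, the bodies of Fbln1, Fbln2, Dcn, Sparc and Fn1 all rose in both AME and Con offspring. Of all 12510 tested bodies, 8319 rose in AME and 7811 in Con offspring. Fbln1, which encodes a fibulin of the elastic matrix, had a body (47 CpGs) at 87.5, 85.6, 86.5, 86.1 and 86.6% in AME-d21, against 69.3, 74.8, 67.2, 73.5 and 70.3% in AME-d0. The Con-d21 libraries had 85.8, 87.8, 87.1, 88 and 87.2%, against 74.97, 69.9, 69.98, 72.9 and 73.1% in Con-d0. It rose by 15.4 points in AME (adjusted p = 4.95e-06) and 15.0 points in Con offspring (adjusted p = 1.63e-06), without overlap, and by 9.74 points in Con offspring with the body taken from the TSS. In the gained intron window printed above it rose by 43.9 points in AME and 39.3 points in Con offspring, with 76.5 ± 4.73% in AME-d21, 77.8 ± 5.46% in Con-d21, 32.7 ± 4.41% in AME-d0 and 38.5 ± 4.54% in Con-d0.

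Fbln2, a related fibulin, rose in its body by 12.6 points in AME and 12.4 points in Con offspring, and with the body taken from the TSS the call in Con offspring was lost (4.41 points, adjusted p = 0.0929). Dcn, which encodes the TGF-beta-binding proteoglycan decorin, rose by 8.63 points in AME and 13.8 points in Con offspring. The body of Sparc, a collagen-binding glycoprotein, rose by 12.7 points in AME and 10.2 points in Con offspring, and that of Fn1, which encodes fibronectin, by 7.23 points in AME and 5.06 points in Con offspring. After centring, of these 5 bodies, those of Fbln1 and Fbln2 were called higher in both AME and Con offspring and the others were not called. No promoter of Fn1, Fbln1 or Fbln2 was called. A bin with 1 CpG in an intron of Fn1 (chr1:71651001-71651200) fell by 33.6 points in AME and 35.3 points in Con offspring.

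Over all members, 259 of 713 bins rose and 24 fell in AME offspring, where 32.6% of the bins of the genome rose and 2.65% fell. In Con offspring, 209 rose and 25 fell, where 27.3% of the bins of the genome rose and 3.07% fell. The members' shares were thus near the background. After centring, 50 bins rose and 32 fell in AME, and 50 rose and 37 fell in Con offspring, where 5.3% of the bins of the genome rose and 3.49% fell in AME and 5.72% and 3.83% in Con. Leaving out AME-d0 replicates 1 and 3 gave 194 called bins in AME offspring, and leaving out AME-d21 replicate 4 gave 257. Called higher in both were 160 bins, which is 61.8% of those in AME and 76.6% of those in Con offspring. Called lower in both were 20 bins (83.3% and 80%), and no bin was called in opposite directions.

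Bins that changed lay mostly far from the TSS. In Con offspring, 6 of 113 promoter bins rose and 0 fell, where 4.35% of the promoter bins of protein-coding genes rose and 1.29% fell. Of 45 upstream bins, 19 rose and 0 fell (background 28.6% and 4.37%), and of 555 body bins, 184 rose and 25 fell (background 32.2% and 4.32%). The 209 bins that rose lay in 38 genes and had medians of 87.5% in Con-d21 and 71.9% in Con-d0, with 113 in introns and 63 in coding exons. The 25 bins that fell lay in 13 genes, with 14 in introns and 9 in coding exons, and had medians of 24.2% in Con-d21 and 55.4% in Con-d0. The libraries of the 2 ages did not overlap in 143 of the 209 and in 21 of the 25. The share over all bins of the genome is not given here, so these counts only describe the called bins. In AME offspring the bins lay in 37 genes where they rose and in 12 where they fell.

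**Figure D5:**
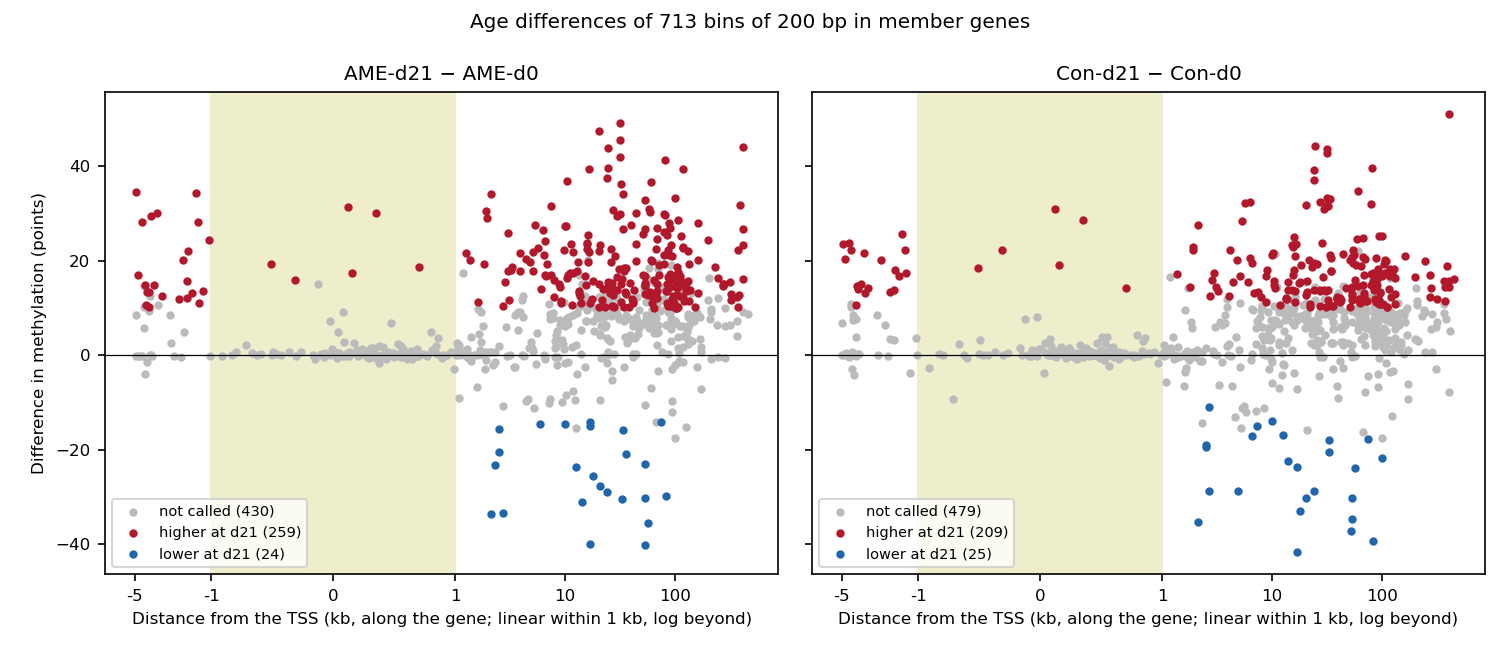
Difference in methylation (percentage points) of 713 bins by distance from the TSS in kb (linear within 1 kb, then log scale, promoter shaded), for AME-d21 minus AME-d0 on the left and Con-d21 minus Con-d0 on the right. In AME offspring 259 bins are marked as higher and 24 as lower, and in Con offspring 209 and 25, against 50 and 32 in AME and 50 and 37 in Con offspring after centring. Those marked lower all sit beyond 1 kb after the TSS.

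The bins with the largest rises in Con offspring, in which the ages did not overlap, were a Reln bin with 1 CpG in a coding exon (chr5:21931201-21931400, 51.0 points) and Fbln1, Col18a1 and Smad3 introns (44.3, 43.7 and 42.8 points). A Col4a2 intron (chr8:11393401-11393600, 1 CpG) rose by 39.6 points, another Smad3 intron (chr9:63733801-63734000) by 37.1 points and a Timp2 intron (chr11:118322001-118322200) by 33.1 points. In AME offspring the same Reln bin rose by 44.1 points, a call that was lost after centring (adjusted p = 0.0621), and an Mmp2 intron (chr8:92847601-92847800) rose by 47.4 points. A bin over the UTR of Col4a1 (chr8:11279601-11279800, 6 CpGs) fell by 30.5 points in AME and 20.5 points in Con offspring. No call named here was lost when a library was left out, and for the Col4a1 bin this was run in AME offspring alone. The Reln coding-exon bin also overlaps Gm10475, a gene of the annotation whose reads cannot be told apart from those of Reln. Further members share bins with other genes, among them Col18a1 with Slc19a1, Mmp14 with Mrpl52, Tgfb3 with Ift43 and Ttll5, and Timp3 with Syn3.

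Binding motifs were counted in the same bins as a description. CAGAC or its reverse complement, the core of SMAD-bound sites, was present in 38.8% of all bins of 200 bp, and in 85 of the 209 bins that rose and 11 of the 25 that fell in Con offspring. TGANTCA, the AP-1 motif, was present in 4.22% of all bins, and in 11 and 2 of these.

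Per CpG, the quasi-binomial model called 88 member CpGs higher and 25 lower in AME offspring, where 2.56% of the CpGs of the genome were higher and 0.553% lower. It called 88 higher and 30 lower in Con offspring, where 2.48% were higher and 0.73% lower. The 113 calls in AME offspring fell to 64 to 81 with 1 library left out, and to 23 higher and 13 lower without AME-d0 replicates 1 and 3, where 0.865% of CpGs were higher and 0.271% lower. The 118 calls in Con offspring fell to 73 to 84 with 1 library left out. In Con offspring the CpGs called lower were most numerous in Tgfb1 and Col18a1, with 11 each of the 30. Those called higher were most numerous in Col18a1, Reln and Ltbp3, with 10 each of the 88. These counts are not scaled to the kept CpGs, which numbered 70 in Tgfb1, 162 in Col18a1, 123 in Reln and 98 in Ltbp3. In AME offspring, Ltbp3 had 16 of the 88 higher and Tgfb1 and Col18a1 had 8 each of the 25 lower. Less strict tests called more, 502 (AME) and 472 (Con) with the likelihood-ratio test, where 13.8% and 12.7% of all CpGs were called, and 320 and 300 with limma, where 8.37% and 8.08% were called.

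The other genes of the TGF-beta superfamily and the matrix, a list of 100 genes, were tested in the same fits. In AME offspring, 14 of 76 promoters rose and 2 fell, 13 of 30 upstream regions rose and 1 fell, and 61 of 83 bodies rose and 1 fell, beside rises in 14.7%, 55.8% and 66.5% of all promoters, upstream regions and bodies. In Con offspring these counts were 13 and 2, 13 and 2, and 58 and 2, beside rises in 15.0%, 52.2% and 62.4% of all. None was called between AME and Con offspring of the same age or in the interaction. The promoter of Eng, a TGF-beta co-receptor of endothelial cells, averaged 48.95% in AME-d21, 45.1% in Con-d21, 9.54% in AME-d0 and 19.6% in Con-d0, and rose in both. The body of Inhba, which encodes an activin subunit, averaged 47.8% in AME-d21, 42.5% in Con-d21, 13.5% in AME-d0 and 13.2% in Con-d0 and rose in both.

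The promoter of the ligand gene Bmp4 rose by 16.5 points in AME and 20.002 points in Con offspring, and the upstream region of Pcolce, an enhancer of procollagen processing, by 42.1 points in AME and 50.6 points in Con offspring. Tgif1, a repressor that binds SMADs, fell in its upstream region by 23.3 points in AME (adjusted p = 4.9e-05) and 34.1 points in Con offspring (adjusted p = 7.5e-07). The promoter of Gdf2, which encodes BMP9, fell by 15.3 points in Con offspring (adjusted p = 0.0083) and differed by -8.70 points in AME offspring (adjusted p = 0.11).

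Marker promoters of other liver cells moved with age at the same time. Of all 12688 tested promoters, 1859 rose and 366 fell in AME offspring, and 1897 rose and 470 fell in Con offspring. Of 12 hepatocyte markers, 5 had a tested promoter (F2, Fbp1, Fgb, Hnf4a and Pck1), and all 5 fell in both AME and Con offspring. Their mean over each library ranged from 20.4 to 26.5% in AME-d21, 21.4 to 29.2% in Con-d21, 53.1 to 61.6% in AME-d0 and 53.3 to 61.9% in Con-d0. Of 4 tested erythroid promoters, 2 rose, with ranges of 27.9 to 36.8% in AME-d21, 28.3 to 35.3% in Con-d21, 10.2 to 18.3% in AME-d0 and 13.5 to 16.02% in Con-d0. Of 6 haematopoietic and myeloid promoters, 5 rose, with 42.3 to 45.7% in AME-d21, 41.5 to 46.7% in Con-d21, 18.5 to 23.0% in AME-d0 and 20.8 to 25.1% in Con-d0. Of 4 endothelial promoters, 3 rose, with 29.1 to 31.9% in AME-d21, 29.2 to 31.4% in Con-d21, 7.39 to 11.5% in AME-d0 and 9.90 to 16.9% in Con-d0. The promoter of Adgre1, the 1 tested of the Kupffer cell markers, rose in both AME and Con offspring, and none of 4 cholangiocyte promoters was called in either. Of 9 tested stellate cell promoters, which include members, 5 rose in AME and 4 in Con offspring. The part of cell composition in the changes of the members with age was not tested.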

How the data were processed

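The authors sequenced RRBS libraries of 20 livers and deposited for each CpG the methylated and the unmethylated read counts with the percent methylated. The deposited percent is the methylated share of these counts. Tools named in the submitters' processing notes, without versions, are Bismark, BWA, Trim Galore and FastQC, and the build is mm10. CpGs with at least 10 reads in at least 3 libraries of each group were kept, and GENCODE M21 genes on GRCm38 gave the regions. Reads of a region were summed, and log2((methylated + 1)/(unmethylated + 1)) was tested with limma 3.58.1 (trend) in R 4.3.3, with Benjamini-Hochberg adjustment over all regions or bins of the same kind, and each pair of groups in its own fit. Changes in points are differences of group means. A quasi-binomial logistic model served for single CpGs. PCR duplicates carry no molecular identifiers, so depth gives counting precision only. The alternatives were other read minimums, windows and models, centring, a replicate block and leaving libraries out. The scripts were tested on simulated data. The members and lists were chosen with earlier results of these data known. Genes were named by a rule, namely the called regions, at most 8 per direction, and called bins without overlap between groups, or the 3 smallest p where none was called. Means over the members are given without a test for the same reason.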

Additional observations from a re-analysis of the deposited data

Results flagged for a closer look

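In the features named in the text, 15 of 288 groups held a library far from the other libraries of its group, and chance gives about 1 in 20 groups. The values are given without explanation.

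In AME-d21, these were replicate 2 in the Mmp14 promoter (1.55%, others 0.195 to 0.577%) and the Pdgfrb promoter (36.8%, others 28.7 to 31.0%), and replicate 4, which went against its label of male, in the Timp2 promoter (3.30%, others 1.30 to 1.80%). They were also replicate 1 in the Timp3 upstream region (56.3%, others 61.1 to 62.7%) and replicate 5 in the Fbln2 body (82.7%, others 85.6 to 86.5%).

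In Con-d21, replicate 3 stood apart in the Snai1 promoter (21.7%, others 9.88 to 13.3%), replicate 1 in the Col6a1 upstream region (66.8%, others 72.1 to 73.8%), and replicate 4 in the Timp2 promoter (3.17%, others 1.36 to 1.87%).

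In AME-d0, replicate 2 stood apart in the Pdgfrb promoter (6.92%, others 7.78 to 7.90%), and replicate 1, one of the 2 libraries with low mean methylation, in the Acta2 body (48.5%, others 63.4 to 68.2%). Replicate 3, the other such library, did so in an Fbln1 intron bin (48.6%, others 31.6 to 36.4%), and replicate 5 in the Loxl2 bin (68.4%, others 38.9 to 47.4%).

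In Con-d0, replicate 5 stood apart in the Fn1 promoter (0.173%, others 0) and in a Smad3 intron bin (74.3%, others 45.8 to 54.1%), and replicate 3 in a Col18a1 intron bin (0, others 14.3 to 15.0%).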

How the results depend on the processing

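Between AME and Con offspring of the same age and in the interaction, 0 member regions and bins were called under all alternatives run, including each library left out (0 to 0). At the CpG level, the likelihood-ratio test called 6 at d0 and 5 at d21, and limma 2 at d21.

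For age, leaving out 1 library at a time gave 47 to 51 regions in AME (53 with all) and 50 to 52 in Con offspring (52 with all), 234 to 282 bins in AME (283) and 212 to 250 in Con offspring (234), and 64 to 81 CpGs in AME (113) and 73 to 84 in Con offspring (118). The CpG count in AME offspring fell to 72, 74, 70, 70 and 75 without AME-d0 replicates 1 to 5 and to 66, 69, 67 and 64 without AME-d21 replicates 2 to 5. In Con offspring it was 76, 74 and 77 without Con-d21 replicates 2, 3 and 4 and 73 without Con-d0 replicate 4. Without AME-d0 replicates 1 and 3 it was 36.

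After centring, 31 regions and 82 bins were called in AME and 87 bins in Con offspring. With at least 20 reads per CpG, 170 bins and 70 CpGs were called in AME and 150 bins in Con offspring, of 404 bins and 1518 CpGs tested. With the promoter from 5 kb before the TSS to the TSS and the body from the TSS, 34 regions of 63 were called in AME offspring. The likelihood-ratio test called 502 CpGs in AME and 472 in Con offspring, limma 320 and 300, limma with adjusted p 549 and 528, and limma with the replicate block 285 and 299. The causes of these differences were not tested, apart from the fewer features tested where so stated.

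The named results had 2358 values under alternatives, which include results never called that had no call to lose. Of these values, 56 lost their call and 3 reversed: the Col4a2 upstream region after centring (log2 -0.12 in AME and -0.32 in Con offspring) and the Col3a1 body in Con offspring with at least 5 reads per CpG (log2 0.0382). The uncalled Smad3 upstream region at d0 also changed sign on this scale with at least 20 reads per CpG (log2 0.032), which was not counted. The replicate numbers did not pair the samples (correlations of deviations from -0.029 to 0.058). With the replicate block, 48 regions and 263 bins were called in AME and 50 and 230 in Con offspring, and 0 between AME and Con offspring. A bin with 1 CpG can rest on 10 reads in a library, which limits its precision.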
